A study of Gallus gallus with 3 samples.

Results

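In the comparison described here, chick somites that had received an antagonist of miR-206 were set beside chick somites that had received a scrambled antagomiR. An antagomiR is a chemically modified antisense oligonucleotide that binds a microRNA and blocks it. A transcript was included if its level, averaged over all 3 libraries of the series, reached 1 CPM, that is, its count after scaling every library to the same total with TMM correction. Those included numbered 13036 of the 15878 transcripts in the table, or 82.1%. The antagomiR-206 group was somites given the antagonist, the scrambled group was somites given the control oligonucleotide, and the third group was uninjected somites from the other side of the embryo. All came from Gallus gallus embryos of Hamburger-Hamilton stages 14 to 16, and the labels name no strain, sex, dose or time after injection. Each group was 1 library, and the number of embryos pooled into each is not given in the sources used here. The labels also do not say which injected embryos gave those uninjected somites. The differences below are therefore between libraries, have no replicate check and carry no p-value.

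Somites are paired blocks of embryonic mesoderm. They divide into sclerotome, which forms vertebrae and ribs, dermomyotome, which forms dermis and muscle progenitors, and myotome, the first skeletal muscle. miR-206 is a muscle microRNA that appears in the myotome and shares its seed, the bases that pair with a target, with miR-1. MicroRNAs lower the stability and translation of transcripts that carry a matching site, usually in the 3' UTR, and in developing muscle targets of this family include the progenitor factor Pax3. The table names its transcripts by Ensembl identifiers alone, and the RefSeq genes of the GRCg7b assembly matched 0 of the 15878. No gene, marker of somite cell types or miR-206 target could be looked up, so the labelled tissue was not checked against its markers and the results are given by transcript and by level.

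The antagomiR-206 library held 16496794 counts and the scrambled library 20176114, with 15207 and 15373 transcripts detected. In this bulk RNA, fewer cells of a type and less RNA per cell cannot be told apart. Ratios are the log2 of (CPM + 1) with antagomiR-206 minus that with the scrambled oligonucleotide, so a positive value means higher with antagomiR-206, and changes of low transcripts are understated. CPM was not divided by transcript length, so a high level here means many reads and not necessarily many molecules.

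Most transcripts had close levels in the antagomiR-206 and scrambled libraries. The log2 ratio was within 1.2-fold for 8017 transcripts, 61.5% of those compared, and its median was -0.01. The antagomiR-206 level was above the scrambled level for 6403 transcripts, below it for 6632 and equal for 1. The middle 50% of transcripts lay between log2 ratios of -0.22 and 0.19. With TMM the tail below 0 was longer than the tail above it: the 5th and 95th percentiles were -0.56 and 0.48, and the 1st and 99th were -0.88 and 0.75. With libraries scaled by their totals alone, the same percentiles of these transcripts were -0.49 and 0.55, and -0.83 and 0.81. The order of the 5th and 95th percentiles thus turned round with the scaling. The 1st percentile stayed slightly further from 0 than the 99th. At 1.2-fold, 2257 transcripts were higher with antagomiR-206, 17.3% of all, and 2762 were lower, 21.2%; scaling by totals alone turned this order round, with 3223 higher and 1991 lower. At 2-fold, 48 transcripts were higher (0.368%) and 87 were lower (0.667%), 1.04% together, and 55 and 74 with totals alone. At 4-fold, 2 were higher (0.0153%) and 6 were lower (0.046%).

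**Figure D1:**
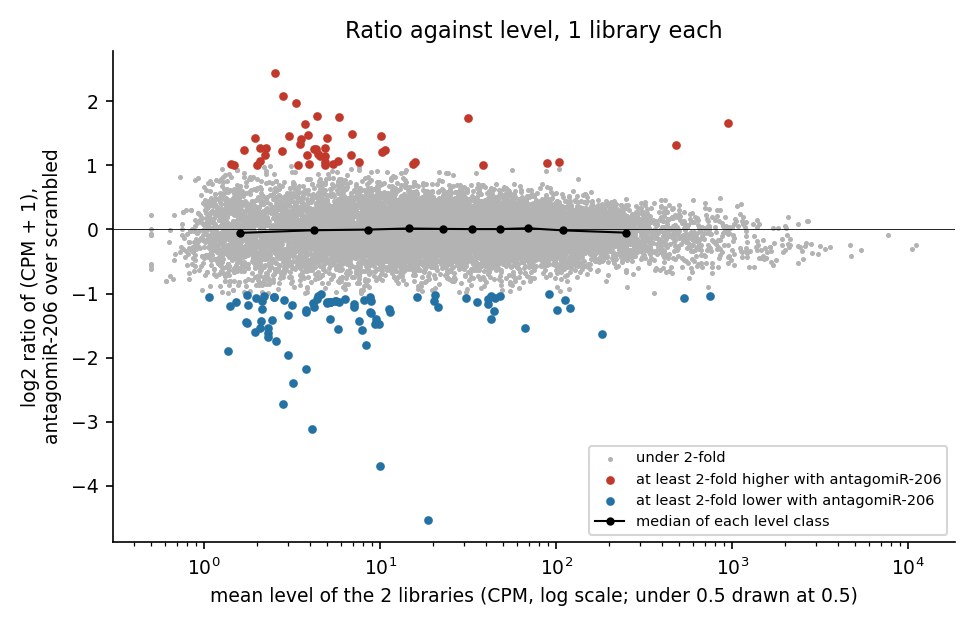
Each point is 1 of 13036 transcripts, placed by its mean level in the antagomiR-206 and scrambled libraries (CPM, log scale) and by its log2 ratio of (CPM + 1), antagomiR-206 over scrambled. Red points are the 48 at least 2-fold higher and blue points the 87 at least 2-fold lower with antagomiR-206. The black line joins the medians of 10 level classes, which stay between -0.05 and 0.02 while the cloud narrows to the right.

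The spread of the ratio was widest among transcripts with few reads. Transcripts were ranked by their mean CPM in the 2 compared libraries and divided into 10 level classes of equal size, class 1 having the fewest reads. Ratios had an SD of 0.43 in class 1, 0.46 in class 2 and 0.26 in class 10. Counting error shrank faster than that spread. The median counting error of a single transcript's ratio was 0.23 in class 1, where the median level was 1.60 CPM. It was 0.03 in class 10, where the median level was 251 CPM. The spread between these 2 libraries was therefore above counting error in each of the 10 classes, by the largest factor in class 10. Whether it exceeds the spread between libraries of 1 group was not measured.

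Of the 135 transcripts that differed by at least 2-fold, 105 were in the lowest 3 classes, at a mean of up to 11.3 CPM. In those classes 40 of 3910 transcripts were higher with antagomiR-206 (1.02%) and 65 were lower (1.66%). In the upper 7 classes 8 of 9126 were higher (0.0877%) and 22 were lower (0.241%). At 1.5-fold, 338 of all transcripts were higher (2.59%) and 551 lower (4.23%) with TMM, but 523 were higher and 387 lower with totals alone. In the TMM values the upper 5 classes had 56 of 6518 higher (0.859%) and 156 lower (2.39%). In class 10 alone 2 of 1304 were higher (0.153%) and 31 lower (2.38%). These 1.5-fold shares of the upper 5 classes and of class 10 were below the shares over all transcripts in the same direction. That majority of lower transcripts in the upper 5 classes likewise did not hold with totals alone, where 117 transcripts were at least 1.5-fold higher and 96 lower. In class 10, 3 were then higher and 13 lower, so the direction held there at 1.5-fold. At 2-fold, class 10 had 2 higher and 3 lower with TMM but 2 higher and 1 lower with totals alone. Its median log2 ratio was -0.05 with TMM and 0.03 with totals alone.

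**Figure D2:**
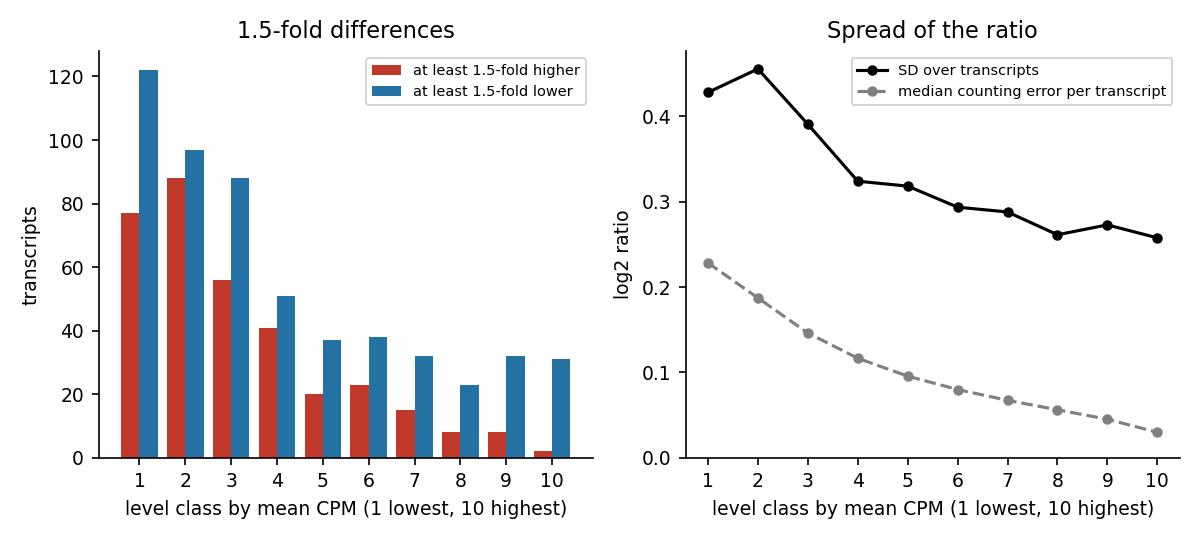
Left: number of transcripts at least 1.5-fold higher (red) or lower (blue) with antagomiR-206 than with the scrambled oligonucleotide, in 10 level classes by mean CPM of the 2 libraries. Right: SD of the log2 ratio over the transcripts of each class (black) and the median counting error of single transcripts on the same scale (grey, dashed). In class 10, 2 of 1304 transcripts were higher and 31 lower, and the SD of 0.26 stands far above the counting error of 0.03.

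The highest single ratios were those of transcripts almost uncounted with the scrambled oligonucleotide. ENSGALT00000008240 had 86 counts with antagomiR-206, 2 with the scrambled oligonucleotide and 6 without injection. These are 4.96, 0.0996 and 0.342 CPM in the same order of libraries. Only the antagomiR-206 library held more than a few reads of it, and the transcript passed the filter only through that library. Its plain CPM ratio was 49.8-fold higher with antagomiR-206 than with the scrambled oligonucleotide (exact 95% interval 13.4 to 418, counting error only), and the log2(CPM + 1) ratio was 2.44. ENSGALT00000043912 had 89 counts with antagomiR-206, 9 with the scrambled oligonucleotide and 54 without injection, or 5.14, 0.448 and 3.08 CPM. The antagomiR-206 level exceeded the scrambled level 11.5-fold (5.77 to 25.9) and the non-injected level 1.67-fold (1.18 to 2.39). For this transcript the scrambled library was the one that stood apart. The next 8 in rank had log2 ratios of 1.48 to 1.98. Their median level was 8.46 CPM with antagomiR-206, 1.87 CPM with the scrambled oligonucleotide and 3.76 CPM without injection.

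At the other end, both leading transcripts had few counts with antagomiR-206, 11 and 10, where a count of 0 would allow up to 3 counts or 0.173 CPM. ENSGALT00000043628 stood at 0.635 CPM with antagomiR-206, 36.9 CPM with the scrambled oligonucleotide and 29.2 CPM without injection, with a log2 ratio to the scrambled library of -4.53. ENSGALT00000024434 stood at 0.577, 19.3 and 57.0 CPM in the same order, with a log2 ratio to the scrambled library of -3.68. The first was somewhat higher in the scrambled library than in the non-injected one, with a log2 ratio of 0.33. The second was lower there, with a log2 ratio of -1.52. The next 8 in rank had log2 ratios of -3.12 to -1.75. Their median level was 0.491 CPM with antagomiR-206, 5.83 CPM with the scrambled oligonucleotide and 4.65 CPM without injection.

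Few transcripts were near 0 in 1 library of the pair and well counted in the other. At most 3 counts with antagomiR-206 and at least 30 with the scrambled oligonucleotide were found for 4 transcripts, and the reverse for 1. A further measure was the number at exactly 0. Both measures were taken over all 15878 transcripts in the table, including those left out of the comparison for low levels. In the antagomiR-206 library 399 transcripts had a count of 0 while the scrambled library had at least 1, with a median of 2 and a highest value of 112 scrambled counts. In the scrambled library 233 had 0 while the antagomiR-206 library had at least 1, with a median of 2 and a highest value of 10 counts. The antagomiR-206 library was also the shallower of the pair, and the part of depth in these numbers was not tested.

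Read-rich transcripts were few among those past 2-fold. The transcripts described in this paragraph were chosen after their values were seen, by a mean of at least 50 CPM in the pair. That left 4 higher and 8 lower, all in classes 8, 9 and 10, which began at 56.9 CPM. These classes held 1303, 1304 and 1304 transcripts, of which 0, 2 and 2 were at least 2-fold higher and 1, 4 and 3 lower. The number of all compared transcripts at 50 CPM or more is not given here. The most read-rich of the higher ones was at 1441 CPM with antagomiR-206 and 455 CPM with the scrambled oligonucleotide. The second was at 681 and 272 CPM in the same order, a 2.50-fold difference (exact 95% interval 2.42 to 2.59), with 379 CPM in the non-injected library. The first was at 708 CPM without injection. Both were lower in the scrambled library than without injection. Both were also higher with antagomiR-206 than without injection, 2.03-fold (1.99 to 2.08) and 1.80-fold (1.74 to 1.85). The third was at 140 CPM with antagomiR-206, 67.3 CPM with the scrambled oligonucleotide and 66.3 CPM without injection, so its 2 other levels were close. The last of the 4 was at 119, 58.0 and 100 CPM in the same order, so its scrambled level was the one that stood apart. Among the lower ones, the most read-rich was at 486 CPM with antagomiR-206, 1000.4 CPM with the scrambled oligonucleotide and 747 CPM without injection. The ratio was 2.06-fold lower with antagomiR-206 than with the scrambled oligonucleotide (2.01 to 2.11). The largest ratio of the 8 was 3.11-fold lower (2.94 to 3.30), at 88.8 CPM with antagomiR-206, 276 CPM with the scrambled oligonucleotide and 368 CPM without injection.

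The levels of the 135 transcripts in the non-injected library were set beside those of the compared pair. The 3 comparisons share libraries, and the transcripts were chosen by the first of them, so the values are a description. The 48 higher transcripts had a median level of 6.61 CPM with antagomiR-206, 2.19 CPM with the scrambled oligonucleotide and 4.33 CPM without injection. Their median log2 ratio was 1.24 for antagomiR-206 over scrambled, 0.56 for antagomiR-206 over non-injected and -0.64 for scrambled over non-injected. The non-injected median thus lay between the other 2, with the scrambled library about as far below it as the antagomiR-206 library was above it. The 87 lower transcripts had a median level of 2.89 CPM with antagomiR-206, 7.97 CPM with the scrambled oligonucleotide and 7.41 CPM without injection. Their median log2 ratios, in the same order of comparisons, were -1.19, -1.22 and 0.11. Here the 2 libraries without the antagonist had close medians and the antagomiR-206 library was the low one. Close medians did not mean close levels of single transcripts. Their log2 ratios of scrambled over non-injected had lower and upper quartiles of -0.37 and 0.36, with a range of -1.52 to 1.13. Over all 13036 compared transcripts these quartiles were -0.21 and 0.22. At 1.5-fold, the 338 higher transcripts had median log2 ratios of 0.71, 0.53 and -0.22, so the scrambled library lay nearer to the non-injected one than the antagomiR-206 library did. The 551 lower ones had -0.73, -0.77 and -0.01. With total count scaling the sets kept the signs of these medians, except that the last became 0.04.

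**Figure D3:**
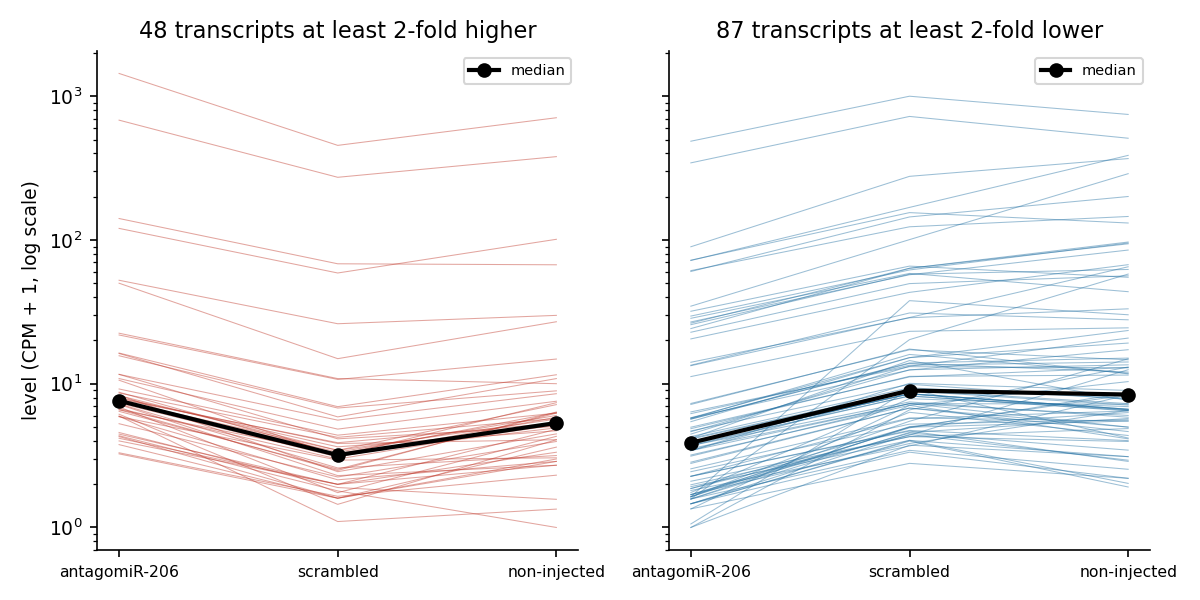
Level (CPM + 1, log scale) with antagomiR-206, with the scrambled oligonucleotide and without injection, of the 48 transcripts at least 2-fold higher (left) and the 87 at least 2-fold lower (right) with antagomiR-206 than with the scrambled oligonucleotide. Each thin line is 1 transcript and the black line joins the medians. On the left the non-injected median of 4.33 CPM lies between 6.61 CPM with antagomiR-206 and 2.19 CPM with the scrambled oligonucleotide, and on the right the scrambled and non-injected medians, 7.97 and 7.41 CPM, lie close together.

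The 135 transcripts held little of the RNA that was sequenced. The 48 higher ones took 0.293% of antagomiR-206 counts and 0.0989% of scrambled counts, and the 87 lower ones took 0.171% and 0.380%. The absolute CPM differences of all compared transcripts were summed, and transcripts past 2-fold made up 2.56% of that sum. Transcripts between 1.2-fold and 2-fold made up 61.2% and those under 1.2-fold 36.2%. Class 10, the most read-rich transcripts, made up 57.9% of the sum. That was near its share of counts, 57.0% with antagomiR-206 and 58.8% with the scrambled oligonucleotide. These shares of the sum are for TMM values and were not recomputed with totals alone. The absolute differences summed to 155099 CPM, and the signed differences, antagomiR-206 minus scrambled, to -52574 CPM. That signed sum depends on the scaling.

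The most read-rich transcripts took a smaller share of counts with antagomiR-206 than with the scrambled oligonucleotide. The top 10 of each library took 5.47% of antagomiR-206 counts (95% Wilson interval 5.46 to 5.48) and 6.22% of scrambled counts (6.21 to 6.23). The top 1000 took 51.7% (51.72 to 51.77) and 53.7% (53.73 to 53.77). In the non-injected library its own top 10 took 7.27% and its own top 1000 took 56.1%. The scrambled shares were thus also below the non-injected ones. The top 100 of the antagomiR-206 and scrambled libraries had 89 transcripts in common, 89% of each list. A list taken from one library favours that library, so the 100 most read-rich transcripts of the non-injected library were also used. They took 18.8% of antagomiR-206 counts, 20.9% of scrambled counts and 23.6% of non-injected counts. Of these 100, 77 were lower with antagomiR-206 than with the scrambled oligonucleotide, with a median log2 ratio of -0.25 and a range of -0.89 to 0.49. With total count scaling 75 were lower and the median was -0.17. The list from the antagomiR-206 library gave 68 lower and the list from the scrambled library 78. For comparison, with TMM 6632 of all 13036 transcripts were lower, or 50.9%, and 745 of the 1304 in class 10.

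**Figure D4:**
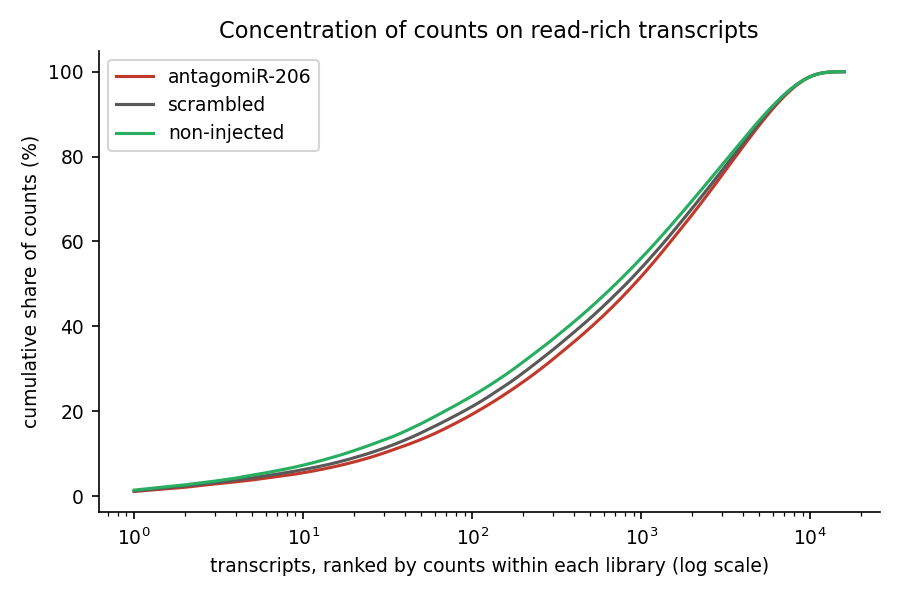
Cumulative share of counts (%) against the number of transcripts, ranked from most to fewest counts within each library (log scale), for antagomiR-206 (red), scrambled (grey) and non-injected (green) somites. The antagomiR-206 curve is lowest through the middle ranks, with 51.7% of counts in its top 1000 transcripts against 53.7% in the scrambled library.

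Transcripts with very low levels were treated as follows. The 5 transcripts just inside the limit had means of 1.0004 to 1.0024 CPM and log2 ratios of -0.70 to 0.27, and the 5 just outside had means of 0.997 to 0.999 CPM and ratios of -0.18 to 0.42. Of the 13036 transcripts compared, 181 were below 1 CPM with antagomiR-206 but not with the scrambled oligonucleotide, and 147 the reverse. Such transcripts could pass only through a library where they were higher. A separate 47 transcripts were below 1 CPM in both compared libraries and passed through the non-injected library. Of the 2842 transcripts left out, 115 had no count in any library, 4 were at least 2-fold higher with antagomiR-206 and 5 were at least 2-fold lower. The 1 CPM added before log2 shrinks ratios at such levels, so these small numbers do not show that the transcripts left out were alike in both libraries. Some transcripts had the same counts as another in all libraries: 47 of those compared repeated another, and the 48 higher and 87 lower transcripts had 48 and 85 distinct sets of counts. Other lower transcripts differed by a few counts only. Examples, with antagomiR-206, scrambled and non-injected, were 50, 151 and 99 counts, 50, 150 and 98, and 48, 145 and 96. Distinct sets do not merge such near repeats, and their number was not measured. The 87 lower transcripts may therefore hold fewer than 85 separate differences.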

How the data were processed

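RNA was taken up in Trizol and Illumina's mRNA-seq kit gave unbarcoded libraries, read from both ends at 50 nt on 1 lane each, per the labels' protocols. The deposited table holds whole-number counts per Ensembl transcript, not normalized. The labels and header name no aligner, counting tool, build, annotation, strand use or filter (not given in the sources used here), so reads shared between isoforms, paralogs or antisense transcripts cannot be judged. Column names were matched to letters in the titles; am was left for the antagomiR title that scr does not name. Counts were divided by library total times TMM factor (edgeR 4.0.16, R 4.3.3). TMM gave 1.05 (antagomiR-206), 0.995 (scrambled) and 0.957 (non-injected). The filter was a 3-library mean of 1 CPM, and 1 CPM was added before log2. The first 2 transcripts in each direction by that ratio are named by identifier. Members and lists were chosen with earlier results of these data known, and the gene lists could not be used without names. Exact (Clopper-Pearson) and Wilson 95% intervals and the 3-count floor cover counting error only, since PCR reads without molecular identifiers are not independent molecules. Counting error of a log2 ratio was propagated from Poisson counts. Ratio calls and intervals were tested on simulated data. That check planted no changes among transcripts with few reads and held no spread between libraries beyond counting error. Alternatives were DESeq2 1.42.0 size factors, other scalings, pseudocounts, filters, thresholds and removal of repeated rows.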

Additional observations from a re-analysis of the deposited data

How the results depend on the processing

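No paired analysis was possible because no group had a second library, and none could be left out. Numbers past 2-fold, 48 higher and 87 lower with antagomiR-206, became 112 and 198 with a pseudocount of 0.1 CPM, 6 and 22 with 5 CPM, and 19 and 55 with the 5 CPM filter. They were 338 and 551 past 1.5-fold and 8 and 14 past 3-fold. Past 1.5-fold the direction turned round with total counts, with 523 higher and 387 lower, a share of higher ones of 57.5% against 38.0%. A larger pseudocount, filter or threshold lowers these by construction. DESeq2 size factors, upper quartile and total count scaling, no filter, a filter on the 2 compared libraries and removal of repeated rows left both numbers past 2-fold within 1.5 times. Scaling shifts all ratios. The median over all transcripts, -0.01, was 0.00424 with DESeq2 size factors, -0.0029 with upper quartile scaling, 0.0644 with total counts and 0 with no filter. The median of class 10, the most read-rich transcripts, -0.05, was -0.0364, -0.0449, 0.0281 and -0.0415 in the same order, and -0.0654 with the 5 CPM filter, so its sign depends on the scaling. That of class 1, also -0.05, was -0.00363 with total counts, -0.0802 and -0.0194 with pseudocounts of 0.1 and 5 CPM, 0 with no filter, -0.034 with the 5 CPM filter, -0.0327 with the filter on 2 libraries and -0.0579 without repeated rows. Level classes were formed anew in each setting, so with another filter a class, or the upper 5 classes, held partly other transcripts. With no filter, class 1 held transcripts that the main comparison left out. The SD of 0.34 was 0.41 and 0.25 with pseudocounts of 0.1 and 5 CPM, 0.32 with no filter and 0.31 with the 5 CPM filter. The top 100 took 19.3% of antagomiR-206 and 21.1% of scrambled counts, the top 10 took 5.47% and 6.22%, and the top 1000 took 51.7% and 53.7%. In the upper 5 classes, 56 higher and 156 lower past 1.5-fold became 117 and 96 with total counts, a share of higher ones of 54.9% against 26.4%, and the higher ones were 33 with a pseudocount of 5 CPM and 36 with the 5 CPM filter. These recomputations past 1.5-fold were chosen after the data were seen. The ratios of the 4 named transcripts were recomputed 36 times, with 28 inside the counting interval and 0 of opposite sign, which neither pseudocounts nor filters could cause. Filters and removal of repeated rows could not change these ratios at all, so those were inside by construction. Every ratio stayed inside with the other scalings and left the interval with pseudocounts of 0.1 and 5 CPM. Depth limits single ratios under about 10 CPM, where counting error is largest.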
